A study of Mus musculus with 24 samples.

Results

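The 9 genes described here are Pcdh9, Cacna1i, 2510009E07Rik, Cdhr2, Ctse, Kif5a, Mmp14, Cd36 and Synj2, out of 24421 genes counted in bone marrow progenitors that lack PLCgamma1, PLCgamma2 or both. They were chosen by their rise against Plcg1+/+Plcg2+/+ in at least 1 knockout group, named as a list with no numeric cut-off. Pcdh9, Cacna1i, 2510009E07Rik and Ctse were selected on Plcg1-/-Plcg2-/- common lymphoid progenitors (CLPs), Ctse and Kif5a on Plcg1-/-Plcg2+/+ B cell progenitors, Cdhr2 on Plcg1-/-Plcg2-/- B cell progenitors, and Mmp14, Cd36 and Synj2 on Plcg1+/+Plcg2-/- B cell progenitors. The values of those comparisons are given below as a description, without a p-value, and their calls are counted only beside the share of all genes called, since the choice fixes them. A p-value is printed for a gene only between groups of libraries that did not choose it, and the libraries of the other population came from the same mice. Earlier results of these data were known when the genes were chosen, so such a p-value is not an independent test.

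RNA was sequenced from CLPs, sorted as Lin-IL-7R+, and from B cell progenitors, sorted as B220+IgM-IL-7R+, in 4 genotypes with 3 mice each, giving 24 libraries. The genotypes were Plcg1+/+Plcg2+/+ (wild type), Plcg1-/-Plcg2+/+ (Plcg1-deficient), Plcg1+/+Plcg2-/- (Plcg2-deficient) and Plcg1-/-Plcg2-/- (double-deficient). Plcg1 was a floxed allele removed by MxCre, whose promoter responds to type I interferon, after poly(I-C) given to donors aged 6 to 12 weeks on a mixed 129xC57BL/6 background of both sexes, whereas Plcg2 was a germline deletion. Donors also carried a Rosa-YFP reporter, and cells were sorted as CD45.2+ 6 to 8 weeks after transfer into lethally irradiated CD45.1+ wild-type recipients. By then, the paper reports, recipient marrow was largely of donor origin. A replicate is a recipient, and the number of donors per genotype is not given in the sources used here.

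PLCgamma1 and PLCgamma2 cleave the membrane lipid PIP2 into IP3, which releases calcium from internal stores, and diacylglycerol, which activates protein kinase C. Both enzymes act below immune receptors, and the IL-7 receptor and the pre-B cell receptor are the main growth signals of early B lineage cells. The 9 genes do not belong to one pathway. Pcdh9 encodes a protocadherin and Cdhr2 a cadherin of intermicrovillar links, both adhesion proteins. Cacna1i encodes the pore of the T-type calcium channel Cav3.3. Ctse encodes cathepsin E, an intracellular aspartic protease, and Mmp14 a membrane-bound matrix metalloproteinase. Kif5a is a heavy chain of the motor kinesin-1, Cd36 a scavenger receptor that takes up fatty acids, and Synj2 a phosphatase of membrane phosphoinositides. 2510009E07Rik is a protein-coding gene known by its clone name.

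Reads on genes numbered 4232340 to 33220000 per CLP library and 1479580 to 25057200 per B cell progenitor library. Reads outside genes took 17.9% to 45.2% of a CLP library, against 59.9% to 87.3% of a B cell progenitor library. Levels are given as normalized CPM, the reads of a gene relative to all reads on genes of its library after TMM scaling. Plcg2 lay between 98.5 and 137 normalized CPM in the 6 CLP libraries labelled Plcg2-/- and between 195 and 281 in the other 6, and in B cell progenitors between 72.1 and 111 against 182 and 247. Plcg1 did not part its genotypes, lying between 70.8 and 185 normalized CPM in the CLP libraries labelled Plcg1-/- and between 90.2 and 112 in the others. Counts per gene do not show which exons the reads cover. By western blot the paper found neither PLCgamma protein in YFP+ marrow cells of double-deficient recipients. In every Plcg1-/- library Xist was high (1293 to 2313 normalized CPM in CLPs) and the Y-linked Ddx3y low (1.44 to 19.1), against 23.6 to 742 for Xist and 98.0 to 134 for Ddx3y in the other CLP libraries. Among B cell progenitors Xist lay between 1452 and 2189 normalized CPM in the Plcg1-/- libraries and between 49.4 and 120 in the others. In any comparison of a Plcg1-/- with a Plcg1+/+ genotype, the loss of Plcg1 and these sex-linked transcripts therefore cannot be told apart. Double-deficient against Plcg1-deficient and Plcg2-deficient against wild type compare libraries on one side of that split. In CLPs these sides were not level. Xist reached 342 in wild type replicate 3 and 742 in Plcg2-deficient replicate 3, and Ddx3y differed by -1.58 (SE 0.55) between double-deficient and Plcg1-deficient CLPs. The CLP label was checked against Pax5, the transcription factor of B lineage commitment, which ranged from 37.7 to 253 normalized CPM in CLPs and from 52.4 to 218 in B cell progenitors, so that the populations overlapped.

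**Figure D1:**
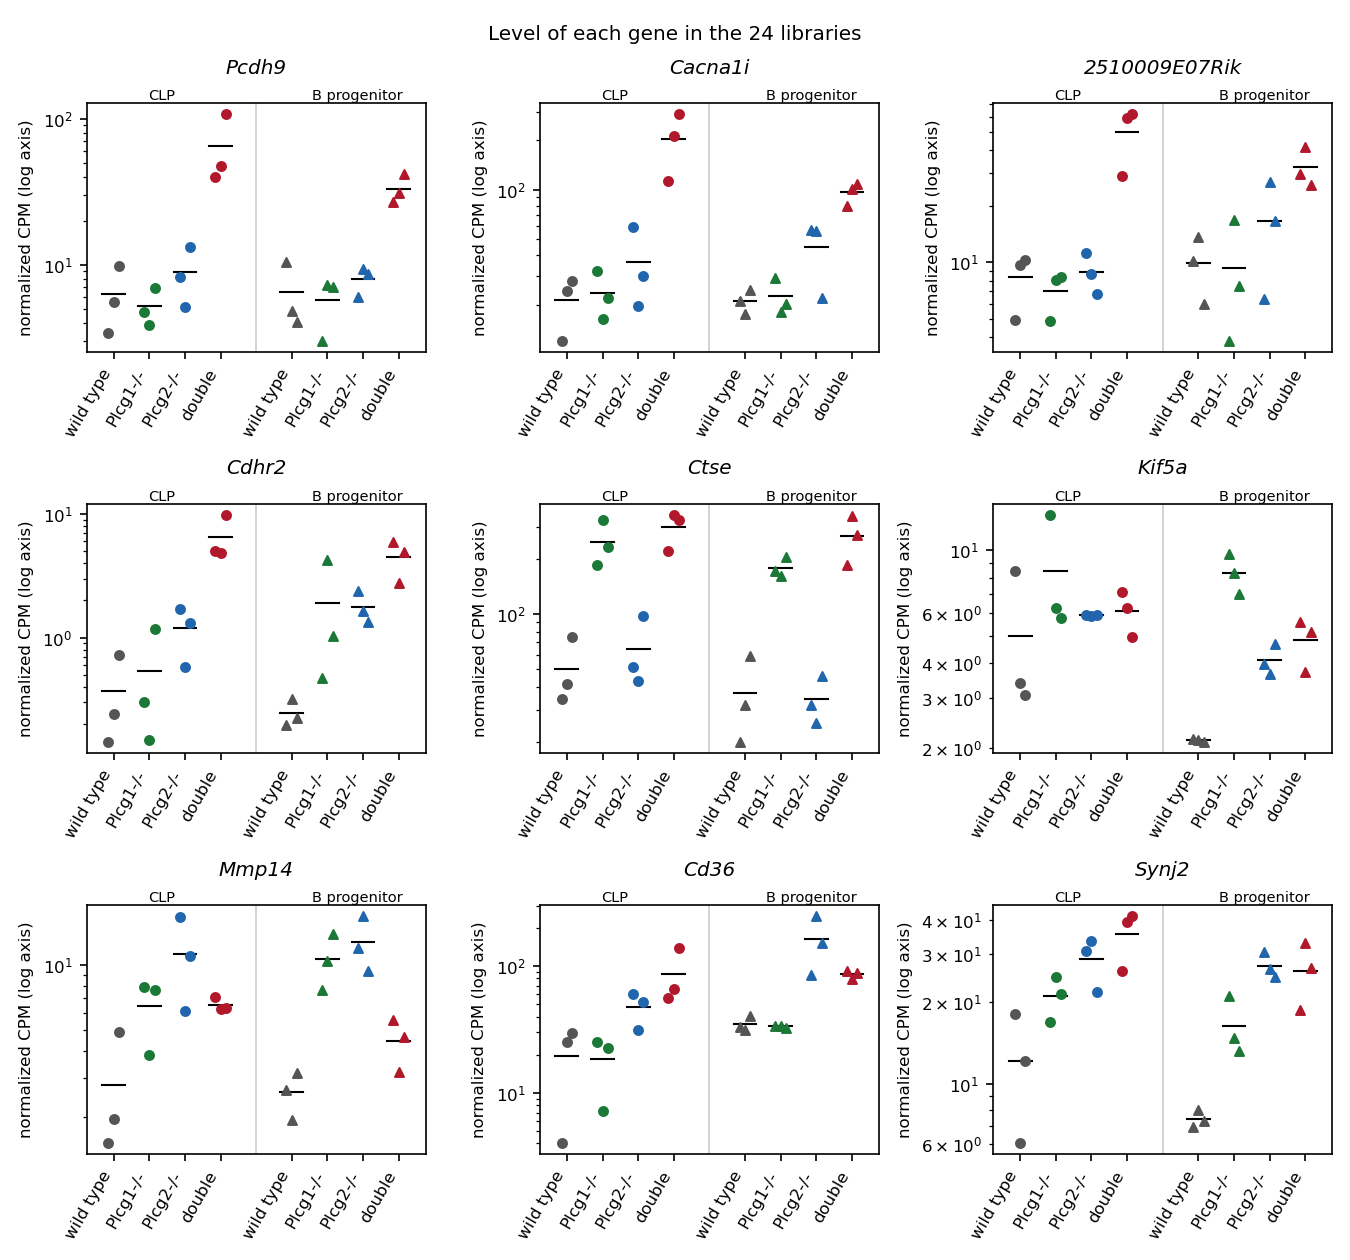
Normalized CPM (log axis) of each of the 9 genes in the 24 libraries, with CLPs as circles on the left and B cell progenitors as triangles on the right of each panel, 3 mice per genotype and the mean as a line. Pcdh9, Cacna1i and 2510009E07Rik stand highest in the double-deficient groups, Ctse stands high in every Plcg1-/- library, and Mmp14 is higher in both single-deficient B cell progenitor groups than in the double-deficient one.

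Pcdh9, Cacna1i, 2510009E07Rik and Cdhr2 shared one order of levels in CLPs, in which the 3 double-deficient libraries lay above all 9 others. To show what lies in front of their starts, the 250 bases upstream of each are given from RefSeq (GRCm38.p6), 5′ to 3′ on the strand of the gene, with matches to the E-box letters CANNTG, the motif of E proteins such as E2A, in capitals. Pcdh9 has 2 promoter entries, of which 1 is shown, and its stretch lies inside the annotated span of the gene, in front of an inner start, whereas the other 3 stretches adjoin the start of the span. The Pcdh9 stretch is chr14:93890680-93890929 on the minus strand, that of Cacna1i chr15:80286988-80287237 on the plus strand, that of 2510009E07Rik chr16:21694666-21694915 on the minus strand and that of Cdhr2 chr13:54701213-54701462 on the plus strand.
Pcdh9: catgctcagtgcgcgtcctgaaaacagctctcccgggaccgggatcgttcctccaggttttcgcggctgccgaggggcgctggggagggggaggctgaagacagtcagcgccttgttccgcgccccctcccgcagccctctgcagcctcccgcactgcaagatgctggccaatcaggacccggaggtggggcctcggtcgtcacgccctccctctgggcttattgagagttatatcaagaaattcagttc
Cacna1i: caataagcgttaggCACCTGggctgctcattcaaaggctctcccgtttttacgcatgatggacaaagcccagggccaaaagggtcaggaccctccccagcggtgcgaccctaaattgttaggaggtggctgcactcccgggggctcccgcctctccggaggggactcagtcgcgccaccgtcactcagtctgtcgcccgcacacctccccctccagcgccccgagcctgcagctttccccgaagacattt
2510009E07Rik: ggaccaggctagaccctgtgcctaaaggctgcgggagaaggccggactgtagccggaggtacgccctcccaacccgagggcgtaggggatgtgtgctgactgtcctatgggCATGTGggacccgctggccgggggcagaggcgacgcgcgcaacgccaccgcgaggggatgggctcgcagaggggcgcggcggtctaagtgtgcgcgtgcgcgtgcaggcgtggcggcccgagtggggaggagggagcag
Cdhr2: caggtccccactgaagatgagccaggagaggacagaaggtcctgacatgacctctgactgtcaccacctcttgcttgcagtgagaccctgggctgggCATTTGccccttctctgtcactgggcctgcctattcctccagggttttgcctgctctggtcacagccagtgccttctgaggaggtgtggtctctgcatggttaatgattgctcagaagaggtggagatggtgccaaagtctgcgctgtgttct
An E-box match was present once each in Cacna1i, 2510009E07Rik and Cdhr2 and absent from Pcdh9, beside 66.0% of 27025 RefSeq promoters of the same length with at least 1. The NFAT core GGAAA, read on both strands, matched once in Cacna1i and not in the other 3, beside 55.6% of all promoters. The AP-1 letters TGANTCA matched in none of the 7 genes with a promoter entry, beside 6.87% of all. Cytosine and guanine made up 63.6% of the Pcdh9 stretch, 62.4% of Cacna1i, 71.2% of 2510009E07Rik and 56.0% of Cdhr2, against a median of 52% over all promoters.

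Pcdh9 lies on chromosome 14 (93013700 to 93892834, minus strand, GRCm38), spans 879 kb and has 6 merged exons in GENCODE M21. In double-deficient CLPs it measured 39.7, 47.7 and 108 normalized CPM, against 3.40, 5.60 and 9.78 in wild type. The Plcg1-deficient libraries held 4.74, 3.86 and 6.94 and the Plcg2-deficient ones 8.27, 5.11 and 13.2, so that only the double-deficient libraries stood apart. The fitted difference that chose the gene was 3.34 on the log2 scale (SE 0.52), 10.1-fold. That choice was made on CLPs. B cell progenitors of the same mice gave 26.9, 30.9 and 42.0 normalized CPM in the double-deficient group against 10.5, 4.83 and 4.07 in wild type. There Pcdh9 was higher by 2.36 (SE 0.40, adjusted p = 0.0175, edgeR quasi-likelihood test). Against Plcg1-deficient B cell progenitors, at 3.02, 7.30 and 6.997 normalized CPM, it was higher by 2.49 (SE 0.41, adjusted p = 0.0457). Against Plcg2-deficient ones, at 5.98, 9.30 and 8.66, the difference of 2.02 (SE 0.42) did not pass (adjusted p = 0.135). The single-deficient B cell progenitors differed from wild type by -0.13 and 0.34, with 95% intervals of -1.02 to 0.75 and -0.56 to 1.25. Without wild type replicate 2 or 3, or double-deficient replicate 2 or 3, the difference from wild type in B cell progenitors was 2.14 to 2.42 and did not pass. In bulk samples such as these, a change in the share of cells that hold a transcript and a change per cell cannot be told apart.

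Cacna1i lies on chromosome 15 (80287238 to 80398292, plus strand, 37 merged exons). Double-deficient CLPs measured 114, 213 and 289.7 normalized CPM, and wild type ones 12.1, 24.3 and 27.9. All 3 double-deficient CLP libraries lay above the highest of the other 9, which was Plcg2-deficient replicate 1 at 59.3. The difference that chose the gene was 3.25 (SE 0.50), 9.54-fold. In B cell progenitors the double-deficient libraries measured 79.6, 102 and 108 normalized CPM against 21.1, 17.6 and 24.4 in wild type, a difference of 2.20 (SE 0.30, adjusted p = 0.00589). This call held under all 12 alternative settings, with differences from 2.09 to 2.34. The Plcg1-deficient libraries stayed at the wild type level with 29.3, 17.9995 and 20.3, and double-deficient ones exceeded them by 2.08 (SE 0.30, adjusted p = 0.0323). In Plcg2-deficient B cell progenitors 2 libraries reached 57.0 and 56.6 while the third was at 21.97, a difference from wild type of 1.16 (SE 0.30) that did not pass (adjusted p = 0.919). Double-deficient exceeded Plcg2-deficient B cell progenitors by 1.04 (SE 0.29, adjusted p = 0.328) with no overlap of libraries.

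The calls of Pcdh9 and Cacna1i against Plcg1-deficient B cell progenitors were each lost when any 1 of 5 of the 6 libraries was left out, all but double-deficient replicate 1, with differences of 2.28 to 2.72 for Pcdh9 and 1.95 to 2.40 for Cacna1i. Both groups of this comparison were high in Xist. Of all 15001 genes tested, 0.06% were called higher in it.

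2510009E07Rik lies on chromosome 16 (21649045 to 21694665, minus strand, 5 merged exons). In double-deficient CLPs it measured 28.8, 59.2 and 62.0 normalized CPM against 4.92, 9.74 and 10.4 in wild type, with no single-deficient library above 11.2. The difference that chose it was 2.58 (SE 0.38), 5.98-fold. B cell progenitors of the same genotype gave 29.5, 41.3 and 25.9 against 10.1, 13.7 and 5.96 in wild type. These groups did not overlap, but the difference of 1.70 (SE 0.53) did not pass (adjusted p = 0.209, and 0.0228 to 0.462 over 12 alternatives, 2 of which called it). Plcg1-deficient libraries scattered from 3.82 to 16.7 and Plcg2-deficient ones from 6.38 to 26.8, so the highest Plcg2-deficient library exceeded the lowest double-deficient one. The difference from Plcg1-deficient B cell progenitors was 1.74 (SE 0.54, adjusted p = 0.171, called in 2 of 12 alternatives) and that from Plcg2-deficient ones 0.87 (SE 0.54, adjusted p = 0.585).

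Cdhr2 lies on chromosome 13 (54701463 to 54736662, plus strand, 32 merged exons) and was the least abundant of the 9 per exon length in wild type, with 1 to 238 reads per CLP library and 2 to 65 per B cell progenitor library. In B cell progenitors it measured 0.196, 0.322 and 0.226 normalized CPM in wild type and 5.90, 2.79 and 4.90 in the double-deficient group, the difference of 4.11 (SE 0.83) that chose it. The means of both single-deficient groups lay between these, with 0.477, 4.28 and 1.02 in Plcg1-deficient and 2.39, 1.64 and 1.33 in Plcg2-deficient libraries. Plcg1-deficient replicate 2 lay within the double-deficient range. Between both single-deficient groups the difference was 0.14 (SE 0.75, 95% interval -1.497 to 1.78, adjusted p = 1.00). That choice was made on B cell progenitors. CLPs held 0.145, 0.243 and 0.726 normalized CPM in wild type against 5.05, 4.82 and 9.82 in the double-deficient group. The difference of 3.91 (SE 0.81) was the largest of the 9 genes in that comparison and did not pass (adjusted p = 0.150, and 0.000477 to 0.556 over 11 alternatives, 2 of which called it). Against Plcg1-deficient CLPs it was 3.70 (SE 0.80, adjusted p = 0.277, called in 2 of 11 alternatives), and against Plcg2-deficient CLPs 2.46 (SE 0.74, adjusted p = 0.517).

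Over the 12 CLP libraries the log2 levels of these 4 genes varied together, with Pearson correlations of 0.98 for Pcdh9 with Cdhr2, 0.949 for Pcdh9 with Cacna1i, 0.938 for Cacna1i with 2510009E07Rik and 0.919 for 2510009E07Rik with Cdhr2. In B cell progenitors the 6 pairs of these genes correlated less, from 0.587 for Cacna1i with 2510009E07Rik to 0.825 for Pcdh9 with 2510009E07Rik. These values describe libraries that share genotypes, 4 groups of 3, and carry the differences between groups. Pcdh9, Cacna1i and 2510009E07Rik were selected on the double-deficient CLPs among them, and Cdhr2 on double-deficient B cell progenitors. The choice therefore favours high correlations, which are descriptions. Among 15208 other genes in CLPs, Cdhr2 and Xkr7 (0.971) were most like Pcdh9, Rpia (0.979) and Serpinf1 (0.959) most like Cacna1i, and Clic6 (0.963) among those most like 2510009E07Rik. Cadm1 (0.877) and Mtus2 (0.874) were most like Cdhr2 in B cell progenitors.

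Ctse was high in both genotypes that lack Plcg1, in both populations, and not only in the double-deficient one. It lies on chromosome 1 (131638314 to 131675507, plus strand, 10 merged exons) and was counted with 171 to 7896 reads per CLP library. Wild type CLPs measured 34.2, 41.6 and 74.6 normalized CPM, Plcg1-deficient ones 186, 324 and 231, Plcg2-deficient ones 51.2, 43.2 and 98.0, and double-deficient ones 220.3, 347 and 326. The 6 Plcg1-/- libraries thus all lay above the 6 Plcg1+/+ libraries. The difference that chose the gene in double-deficient CLPs was 2.55 (SE 0.38), 5.85-fold, and Plcg1-deficient CLPs, compared with the same wild type libraries, were higher by 2.29 (SE 0.37). Wild type B cell progenitors measured 20.1, 31.99 and 59.2 normalized CPM and Plcg1-deficient 171, 160.4 and 205, the difference of 2.29 (SE 0.35) that chose it there. Plcg2-deficient B cell progenitors stayed at 31.9, 25.5 and 45.9 and double-deficient ones reached 186, 343 and 270.4.

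The comparison of double-deficient with Plcg2-deficient B cell progenitors used none of the libraries that chose Ctse among B cell progenitors. There it was higher by 2.98 (SE 0.37, adjusted p = 0.00596), 7.90-fold, while 0.0533% of all genes tested were called higher. Without Plcg2-deficient replicate 2 the difference was 2.79 and the adjusted p 0.0577. In CLPs, Plcg1-deficient exceeded Plcg2-deficient libraries by 1.95 (SE 0.37) without overlap, and the difference did not pass (adjusted p = 0.609), in a comparison that called 0.00658% of genes in either direction. Both comparisons set Xist-high against Xist-low libraries. Over the 12 libraries of a population the log2 levels of Ctse and Xist correlated at 0.916 in CLPs and 0.950 in B cell progenitors. Xist and its antisense partner Tsix (0.934) were the genes most like Ctse among 15000 others in B cell progenitors, and the X-linked demethylase gene Kdm6a (0.948) and Zfp503 (0.919) were most like it in CLPs. Within the Xist-high B cell progenitors Ctse was 178.8 ± 23.3 (SD, n = 3) in Plcg1-deficient and 266 ± 78.8 (SD, n = 3) in double-deficient libraries, a difference of 0.55 (SE 0.33) with overlap. Among Plcg1+/+ CLPs, Plcg2-deficient replicate 3 was highest in both (Xist 742, Ctse 98.0), followed by wild type replicate 3 (342 and 74.6). The remaining Plcg1+/+ CLP libraries had Xist at 23.6 to 241 and Ctse at 34.2 to 51.2. Among Plcg1+/+ B cell progenitors Xist spanned 49.4 to 120, and wild type replicate 3, highest in Ctse at 59.2, had Xist at 87.5. Whether sex or Plcg1 accounts for the Ctse level cannot be told apart in these libraries.

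**Figure D2:**
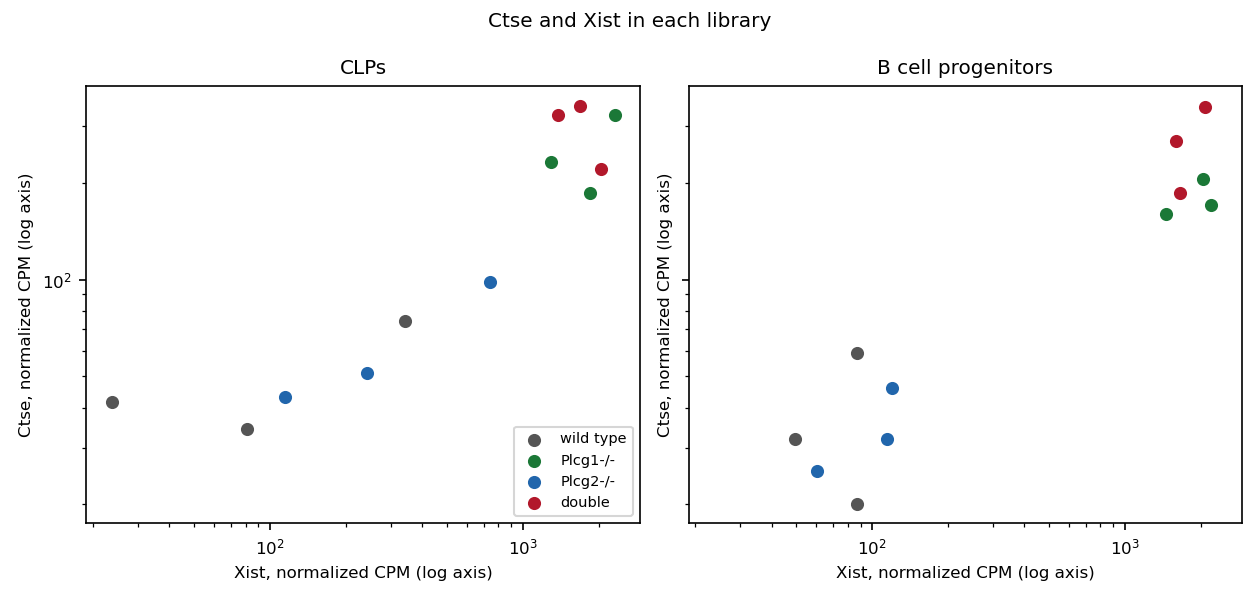
Normalized CPM of Ctse against Xist (both log axes) in the 12 CLP libraries and the 12 B cell progenitor libraries, coloured by genotype. All 6 Plcg1-/- libraries of each population lie at the upper right, with Xist at or above 1293 and Ctse at or above 160.4, and the 6 Plcg1+/+ libraries at the lower left.

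Kif5a lies on chromosome 10 (127225695 to 127266348, minus strand, 29 merged exons) and was counted with 7 to 87 reads per B cell progenitor library. There its 3 wild type libraries lay close together at 2.16, 2.15 and 2.11 normalized CPM. Plcg1-deficient libraries measured 9.70, 8.31 and 6.997, the difference of 1.98 (SE 0.30) that chose it. Plcg2-deficient libraries, at 3.99, 3.64 and 4.66, and double-deficient ones, at 5.57, 3.73 and 5.16, were both above wild type and both below Plcg1-deficient libraries. The last 2 groups overlapped, with a difference of 0.22 (SE 0.31, 95% interval -0.46 to 0.91, adjusted p = 0.873). In CLPs all 4 genotypes overlapped. Wild type CLPs measured 8.46, 3.41 and 3.09 normalized CPM, Plcg1-deficient ones 13.3, 6.24 and 5.77, Plcg2-deficient ones 5.91, 5.87 and 5.94, and double-deficient ones 7.15, 6.25 and 4.95. Plcg1-deficient CLPs differed from wild type by 0.74 (SE 0.43, adjusted p = 1.00) and double-deficient ones by 0.26 (SE 0.43, adjusted p = 0.902). The genes most like Kif5a in B cell progenitors were D5Ertd605e (0.895) and Apod (0.857).

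Mmp14 was the only gene of the 9 whose level in B cell progenitors was high in both single-deficient groups and lower in the double-deficient one without overlap. It lies on chromosome 14 (54431598 to 54442456, plus strand, 11 merged exons) and had 14 to 317 reads per B cell progenitor library. Wild type measured 2.65, 1.93 and 3.17 normalized CPM, Plcg1-deficient 7.64, 10.4 and 13.8, Plcg2-deficient 11.96, 16.7 and 9.32, and double-deficient 5.57, 3.22 and 4.63. The difference that chose it, Plcg2-deficient against wild type, was 2.34 (SE 0.35), 5.06-fold, and Plcg1-deficient libraries exceeded the same wild type by 2.05 (SE 0.34). Double-deficient against Plcg1-deficient B cell progenitors used neither group of the choice and gave -1.32 (SE 0.34), which did not pass (adjusted p = 0.162). In CLPs wild type measured 1.52, 1.95 and 4.90 normalized CPM, Plcg1-deficient 7.86, 3.86 and 7.62, Plcg2-deficient 16.5, 6.14 and 10.99, and double-deficient 7.10, 6.25 and 6.31. Plcg2-deficient CLPs lay above wild type in all libraries, by 1.94 (SE 0.50, adjusted p = 0.939), and double-deficient CLPs by 1.16 (SE 0.49, adjusted p = 0.624). Its double-deficient and Plcg1-deficient CLPs differed by 0.02 (SE 0.47, 95% interval -1.02 to 1.05). Klra5 (0.868) and Rasgef1a (0.867) were most like Mmp14 in B cell progenitors.

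In B cell progenitors the Cd36 levels of both genotypes that lack Plcg2 lay above wild type without overlap, while those of Plcg1-deficient libraries lay within the wild type range. It lies on chromosome 5 (17781690 to 17888959, minus strand, 17 merged exons). B cell progenitors measured 33.2, 31.1 and 40.2 normalized CPM in wild type and 33.6, 33.9 and 32.8 in Plcg1-deficient mice. Plcg2-deficient libraries measured 85.7, 248 and 153 and double-deficient ones 90.8, 79.0 and 88.1. The difference that chose it was 2.25 (SE 0.29), 4.76-fold, and double-deficient libraries exceeded the same wild type by 1.30 (SE 0.28). Double-deficient against Plcg1-deficient B cell progenitors, both high in Xist, differed by 1.34 (SE 0.29) with no overlap, which did not pass (adjusted p = 0.116). In CLPs wild type measured 4.05, 25.1 and 29.9 normalized CPM and Plcg1-deficient 25.4, 7.18 and 22.5, a scatter in which 1 library of each stood low. Plcg2-deficient CLPs measured 60.4, 31.4 and 51.9 and double-deficient CLPs 56.3, 66.0 and 139, all above the wild type libraries. Their differences from wild type were 1.29 (SE 0.66, adjusted p = 0.939) and 2.15 (SE 0.67, adjusted p = 0.408). AB124611 (0.762) and Abi3 (0.761) were most like Cd36 in B cell progenitors, the lowest likeness of the 9.

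Synj2 lies on chromosome 17 (5941280 to 6055766, plus strand, 32 merged exons). Wild type B cell progenitors measured 6.97, 8.05 and 7.31 normalized CPM, below every knockout library of that population. Plcg2-deficient libraries measured 30.3, 26.4 and 24.6, the difference of 1.88 (SE 0.24) that chose it, 3.68-fold. Double-deficient libraries at 18.7, 32.8 and 26.5 and Plcg1-deficient ones at 20.997, 14.7 and 13.1 exceeded the same wild type by 1.81 (SE 0.23) and 1.15 (SE 0.23). Double-deficient and Plcg1-deficient B cell progenitors differed by 0.67 (SE 0.23, adjusted p = 0.185). In CLPs the means followed the same order of genotypes except at the top, with 12.1 ± 5.997 (SD, n = 3) normalized CPM in wild type, 20.9 ± 3.88 in Plcg1-deficient, 28.6 ± 6.10 in Plcg2-deficient and 35.4 ± 8.35 in double-deficient libraries. The double-deficient difference from wild type was 1.502 (SE 0.34, adjusted p = 0.196) and the Plcg2-deficient one 1.22 (SE 0.33, adjusted p = 0.939). Synj2 shares 297 exon bases with Serac1 on the opposite strand, and the kit does not mark strand, so reads there could belong to either gene. Serac1 itself differed from wild type by 0.43 (SE 0.28) in Plcg2-deficient and 0.11 (SE 0.27) in double-deficient B cell progenitors.

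**Figure D3:**
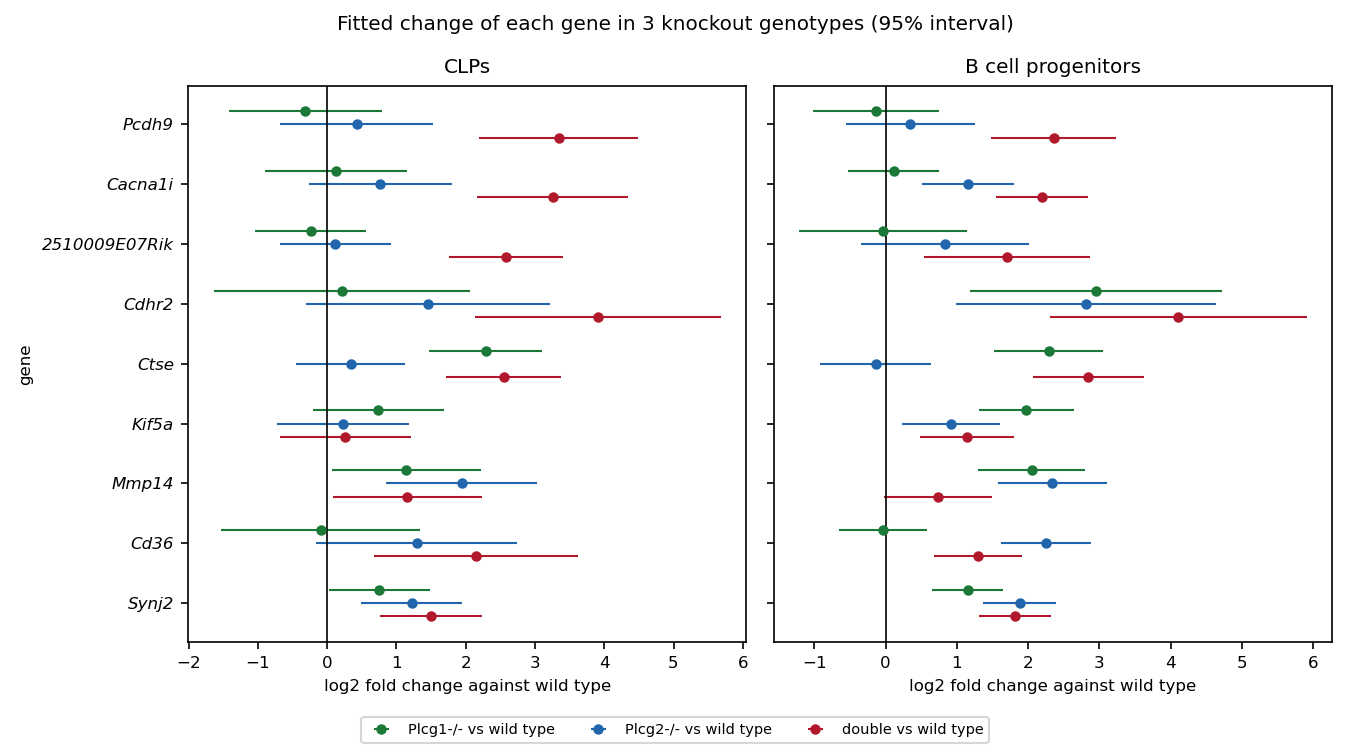
Log2 fold change against wild type of each gene in CLPs (left) and B cell progenitors (right), with 95% intervals from the fit and 1 colour per knockout genotype. Some of these comparisons chose the genes. Every double-deficient point is above 0, and in B cell progenitors Mmp14 stands at 0.73 in the double-deficient against 2.34 in the Plcg2-deficient genotype.

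Counted over the 9 genes, all of which passed the low-count filter, each comparison with wild type is given with its background. In double-deficient CLPs 4 were called higher and 8 had all 3 libraries above all 3 of wild type, beside 0.0395% and 6.27% of 15209 genes. These 4 are those selected on it. In Plcg1-deficient CLPs none was called (3 had an unadjusted p under 0.05, and DESeq2 called 1, Ctse) and 1 lay above without overlap, beside 0% and 3.16% of genes. In Plcg2-deficient CLPs none was called (2 had an unadjusted p under 0.05, and DESeq2 called 0) and 3 lay above, beside 0% and 3.16%. In double-deficient B cell progenitors 5 were called higher and 9 lay above, beside 0.22% and 9.06% of 15001 genes. Of these 5, Cdhr2 was selected on the comparison, Ctse and Synj2 shared its wild type libraries with their own choice, and Pcdh9 and Cacna1i were chosen in CLPs. In Plcg1-deficient B cell progenitors 2 were called and 5 lay above, beside 0.0333% and 7.94%, and in Plcg2-deficient ones 3 and 5, beside 0.0333% and 4.44%. The called genes of the last 2 comparisons are those selected on them. The median difference of the 9 genes was 2.55 in double-deficient CLPs and 1.81 in double-deficient B cell progenitors, against -0.03 and -0.02 over all genes tested. It was 0.21 and 0.77 in Plcg1-deficient and Plcg2-deficient CLPs and 1.15 and 1.16 in the same B cell progenitors. The comparisons within a population share their wild type libraries. As the genes were chosen as rises against wild type, the choice also raises these medians and the counts without overlap, which are descriptions.

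The calls that rest on the choosing comparisons depended on single libraries. The 4 calls in double-deficient CLPs fell to 0 without wild type replicate 2, double-deficient replicate 2 or double-deficient replicate 3, to 1 without wild type replicate 3 and to 2 without wild type replicate 1. Those in Plcg1-deficient B cell progenitors fell to 0 or 1 and those in Plcg2-deficient ones to 0 or 1 without any 1 of the 6 libraries compared. The 5 calls in double-deficient B cell progenitors fell to 3 without replicate 2 or 3 of either group, and Cacna1i, Ctse and Synj2 were called under all 12 alternative settings.

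Between the single-deficient B cell progenitors Ctse was called higher in Plcg1-deficient and Cd36 lower, by 2.43 (SE 0.37) and -2.29 (SE 0.29), beside 0.0733% of genes called in either direction. Each gene was chosen with 1 of these groups, so both are descriptions. The Ctse call was lost without any 1 of the 6 libraries (2.22 to 2.66) and the Cd36 call without any 1 of the Plcg1-deficient libraries (-2.32 to -2.28). Against the sum of both single-deficient differences, the double-deficient difference of Pcdh9 was higher by 3.23 (SE 0.71) in CLPs and 2.15 (SE 0.58) in B cell progenitors. For 2510009E07Rik these values were 2.70 (SE 0.52) and 0.91 (SE 0.76), and for Cacna1i 2.36 (SE 0.66) and 0.93 (SE 0.41). For Mmp14 they were -1.93 (SE 0.68) and -3.65 (SE 0.49), for Kif5a -0.70 (SE 0.61) and -1.75 (SE 0.43), and for Synj2 -0.47 (SE 0.46) and -1.22 (SE 0.32). Cdhr2 and Cd36 lay above the sum in CLPs, at 2.24 (SE 1.11) and 0.95 (SE 0.92). In B cell progenitors they lay below it, at -1.66 (SE 1.07) and -0.91 (SE 0.40). Ctse was close to the sum in CLPs, at -0.08 (SE 0.50), and at 0.69 (SE 0.49) in B cell progenitors. In the population that chose a gene such a contrast holds the choosing libraries, and all are given without a test.

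**Figure D4:**
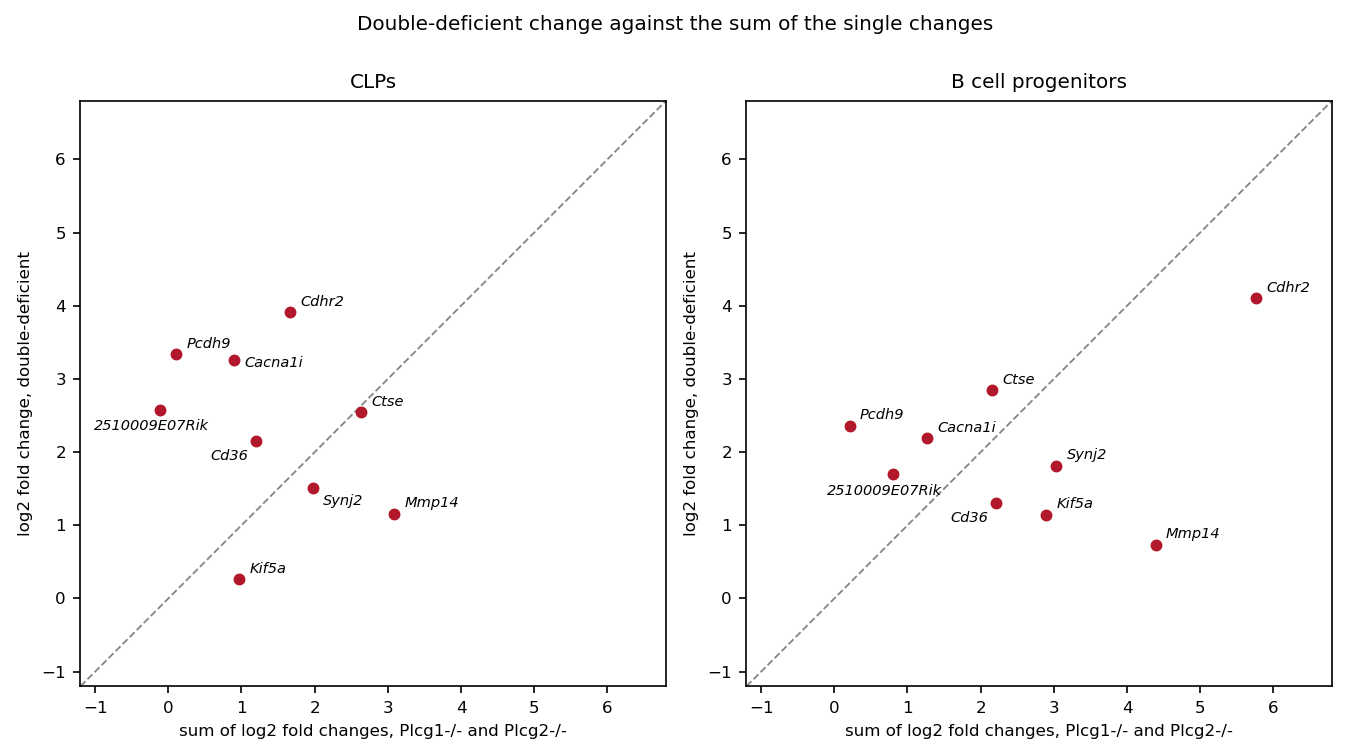
Log2 fold change of the double-deficient genotype against the sum of the log2 fold changes of both single-deficient genotypes, all against wild type, for the 9 genes in CLPs (left) and B cell progenitors (right). Points above the dashed line of equality include Pcdh9, Cacna1i and 2510009E07Rik in both panels. Mmp14 lies below it in both, at -1.93 and -3.65, as do Kif5a (-0.70 and -1.75) and Synj2 (-0.47 and -1.22).

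Between the populations, 0 of the 9 genes were called in any genotype, while 3.5% of 17212 genes were called in either direction in wild type, 3.78% in Plcg1-deficient, 3.21% in Plcg2-deficient and 3.24% in double-deficient mice (edgeR). Of the 9, 2, 1, 2 and 2 had an unadjusted p under 0.05 in these genotypes, and DESeq2 called Kif5a in wild type and Cd36 in Plcg2-deficient mice. Cacna1i was lower in all double-deficient B cell progenitor libraries, at 96.5 ± 15.01 (SD, n = 3) normalized CPM, than in all double-deficient CLP libraries, at 205 ± 88.2 (SD, n = 3). For Pcdh9 the double-deficient means were 33.2 ± 7.82 and 65.0 ± 37.1 (SD, n = 3) with overlap. In Plcg2-deficient mice Ctse differed in B cell progenitors by -0.93 on the log2 scale (SE 0.40), which did not pass (adjusted p = 0.244). With the mouse as a block it differed by -0.84 and passed (adjusted p = 0.0180). In Plcg1-deficient mice Cdhr2 was higher in B cell progenitors by 1.95 (SE 0.77, adjusted p = 0.131). Without Plcg1-deficient replicate 2 that difference was 0.04, and without replicate 3 it was 3.19.

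Per exon length (RPKM, gene models of GENCODE M21), Ctse was the most abundant of the 9 in wild type, with 15.8 ± 6.78 (SD, n = 3) in CLPs and 11.7 ± 6.32 in B cell progenitors. Cd36 followed with 5.48 ± 3.83 and 9.70 ± 1.32, and then Cacna1i with 2.17 ± 0.842 and 2.13 ± 0.346. The libraries of Ctse and Cd36 did not overlap in CLPs and did in B cell progenitors. Synj2, 2510009E07Rik, Pcdh9, Kif5a and Mmp14 had wild type CLP means between 0.468 and 1.45 and did not part from their neighbours in that order. Cdhr2 was lowest, at 0.0900 ± 0.0754 and 0.0601 ± 0.0159. In double-deficient CLPs Cacna1i reached 20.8 ± 8.94 RPKM, near Cd36 at 24.2 ± 12.6, and Ctse 93.9 ± 21.4.

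Relatives of the 9 genes were read from 8 lists drawn up by gene family. In each list the gene described here was the only one that passed in any of the 6 comparisons with wild type, though the other members were not level in all of them. Of 10 calcium channel pore genes 10 were tested, with list medians from -0.12 to 0.95 over the 6 comparisons, and Cacna1e stood at 65.2 ± 14.04 normalized CPM (SD, n = 3) in wild type CLPs. Of 18 cathepsins and aspartic proteases 17 were tested, with medians from 0.25 to 0.61, and Ctsb, a lysosomal protease, stood at 393 ± 109. Of 10 protocadherins 6 or 7 were tested, with medians from -0.15 to 1.74, and Pcdh7 stood at 2.32 ± 0.703. Of 7 kinesin-1 chains 7 were tested, with medians from -0.20 to -0.02, and Kif5b, the widely expressed heavy chain, stood at 256 ± 18.8. Of 16 metalloproteinases and inhibitors 13 or 14 were tested (medians 0.29 to 0.71), of 11 inositol 5-phosphatases 11 (medians -0.02 to 0.22), and of 14 scavenger and fatty acid uptake genes 13 or 14 (medians 0.19 to 0.41). Of 7 microvillar cadherins and partners in the files 3 or 4 were tested, with medians from -0.76 to 2.57.

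Markers of other cells were read in the same libraries. Over 12 lists of cell type markers, including macrophage (10 genes), dendritic cell (8), plasmacytoid dendritic cell (10), neutrophil (10) and erythroid (8) markers, 1 marker was called in the 6 comparisons with wild type by edgeR, Sdc1, which was lower in double-deficient B cell progenitors. A marker that was not called is not thereby shown to be level. The 10 neutrophil markers summed to 2190 to 3573 normalized CPM in wild type CLPs, 2890 to 8212 in Plcg1-deficient, 2250 to 7688 in Plcg2-deficient and 3435 to 7590 in double-deficient ones, with median differences from wild type of 1.00, 0.91 and 1.21. In B cell progenitors the sums were 1352 to 4340, 2357 to 7553, 1327 to 7802 and 2670 to 6413 in the same order, with medians of 0.92, 0.92 and 1.25. These markers were thus higher on median in all 3 knockout genotypes, and most so in the double-deficient one in both populations. None of the 10 was at 0. The 10 macrophage markers, a type in which Cd36 and Mmp14 are known to be made, summed to 80.9 to 216 normalized CPM in wild type, 143 to 327 in Plcg1-deficient, 111 to 332 in Plcg2-deficient and 138 to 320 in double-deficient B cell progenitors. In the Plcg1-deficient libraries among these, Cd36 lay at 32.8 to 33.9 normalized CPM, within the wild type range. Mmp14 lay at 7.64 to 13.8 in them, above the wild type range of 1.93 to 3.17. The 10 plasmacytoid dendritic cell markers summed to 980 to 1742 normalized CPM over all groups. Hba-a1, Hbb-bs and Hbb-bt were listed at 0 in every group. Beyond these values the part of such cells in the 9 genes was not tested.

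Within 1 Mb of 8 of the 9 genes 220 other genes were tested in B cell progenitors and 223 in CLPs, and none near Pcdh9. Called against wild type were 3 of the 220 in double-deficient B cell progenitors (1.36%, beside 0.893% of all genes tested), 1 in Plcg2-deficient ones (0.455%, beside 0.0467%) and none in the other 4 comparisons (edgeR). Fcmr, 758 kb from Ctse, was lower in double-deficient B cell progenitors, at -3.77 (SE 0.61, adjusted p = 0.0133), and Dok3, 787 kb from Cdhr2, was lower at -1.16 (SE 0.20, adjusted p = 0.0180). Rnaset2b, 923 kb from Synj2 and one of a pair of near-identical copies, was higher in Plcg2-deficient (4.57, SE 0.66, adjusted p = 0.0394) and in double-deficient B cell progenitors (3.45, SE 0.64, adjusted p = 0.0271), and its split from the other copy is uncertain. Though not called there, Rnaset2b also lay above wild type in Plcg1-deficient B cell progenitors, at 2.01 to 5.25 against 0.196 to 0.452 normalized CPM. In wild type CLPs it measured 0.868 to 3.51. Plcg1-deficient CLPs had 7.87 to 10.4, Plcg2-deficient ones 12.4 to 16.8 and double-deficient ones 5.80 to 9.34, again without a call. Rnaset2b was also the gene most like Synj2 in B cell progenitors (0.847), followed by A930015D03Rik (0.846).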

How the data were processed

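Poly(A) RNA was prepared with a kit that does not mark strand, and the authors aligned reads to mm10 with STAR 2.5.0a. The deposited values are raw counts per gene symbol and library, without normalization. The counting program is not given in the sources used here. Lines for reads on no gene or ambiguous reads were left out.

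The quasi-likelihood F test of edgeR 4.0.16 (R 4.3.3) was run on TMM-scaled, filterByExpr-filtered counts with Benjamini-Hochberg adjustment over all genes, in 1 fit per population of 12 libraries without covariates and 1 fit of 24 libraries between populations. Calls required both an adjusted p up to 0.05 and a log2 difference of 0.5 or more in size. Standard errors derive from the F statistic and intervals from its degrees of freedom. Intervals cover the spread between recipients. Replicates of one group differed by far more than sampling noise (chi-square per degree of freedom 8.28 to 133).

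The 9 genes and all lists were chosen with earlier results of these data known. Named besides them were targeted and sex-linked genes, called or abundant relatives, the 2 genes most correlated with each, and called neighbours within 1 Mb; some genes that this rule names are not reported here. CLPs and B cell progenitors with one mouse number came from one mouse (mean correlation of their deviations 0.202 over 12 pairs). Alternatives were RLE factors, no filter, DESeq2 1.42.0, blocks, 2 groups alone and leaving out libraries, and, added after seeing the data, leaving out the 3 shallowest B cell progenitor libraries together. Fits were checked on simulated counts for double-deficient against wild type. There edgeR recovered 49% (CLPs) and 53% (B cell progenitors) of log2 changes of 1.5, and 77% and 78% of those of 2.5. DESeq2 recovered 68% and 63%, and 83% and 83%. False calls numbered 5 and 8 with edgeR and 37 and 37 with DESeq2. A difference that did not pass is thus not shown to be absent. Positions and distances are from RefSeq (GRCm38), and strand, merged exons and shared exon bases from GENCODE M21.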

Additional observations from a re-analysis of the deposited data

How the results depend on the processing

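No alternative reversed the direction of a called difference of the 9 genes: 132 values kept their call and 103 lost it. The counts of the 9 genes called moved by over 1.5 times as follows, and the cause was not tested. DESeq2 called 7 in double-deficient CLPs against wild type (4 by edgeR), 5 against Plcg1-deficient (1), 4 against Plcg2-deficient CLPs (0), 1 in Plcg1-deficient CLPs against wild type (0) and 1 against Plcg2-deficient CLPs (0). In B cell progenitors it called 4 in Plcg1-deficient against wild type (2), 5 in double-deficient against Plcg1-deficient (2) and 3 against Plcg2-deficient (1), and 1 between populations in wild type and 1 in Plcg2-deficient mice (0). DESeq2 also called more of all genes, with 94 higher and 75 lower in double-deficient against wild type CLPs (6 and 8 by edgeR) and 141 and 661 in double-deficient against Plcg1-deficient B cell progenitors (9 and 23). Outside their choosing groups DESeq2 called Cdhr2, Synj2 and Cd36 in double-deficient CLPs against wild type, Cdhr2 and Cd36 against Plcg1-deficient, Ctse in Plcg1-deficient against Plcg2-deficient CLPs, and 2510009E07Rik, Mmp14 and Cd36 in double-deficient against Plcg1-deficient and Pcdh9 against Plcg2-deficient B cell progenitors, none of which passed in edgeR as reported. Fitting 2 groups alone, on fewer samples, gave 0 in double-deficient CLPs against wild type and against Plcg1-deficient, 0 in both single-deficient B cell progenitor groups against wild type, 0 in double-deficient against Plcg1-deficient and 1 between the single-deficient ones (2). Without the filter, 3 were called in double-deficient against Plcg1-deficient CLPs, 3 against Plcg2-deficient and 1 in Plcg1-deficient B cell progenitors. RLE factors gave 1 in double-deficient against Plcg2-deficient CLPs and 1 in Plcg1-deficient B cell progenitors.

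Replicate numbers shared across genotypes did not mark a shared mouse. Deviations of same-numbered libraries correlated at 0.267 on average in CLPs (lowest -0.280) and 0.182 in B cell progenitors (lowest -0.407). Differently numbered libraries correlated at -0.131 and -0.091. Deviations were taken from group means, which ties both values together. With the replicate number as a block, calls over all genes in double-deficient against wild type B cell progenitors rose. They went from 33 higher and 101 lower to 190 and 360, and in CLPs from 6 and 8 to 25 and 25. Of the 9 genes, 3 were called with the replicate block in double-deficient against Plcg1-deficient CLPs, 3 against Plcg2-deficient and 1 in Plcg1-deficient B cell progenitors. Genes outside their choosing groups that were called with this block and not without it were Cdhr2 in double-deficient CLPs against wild type (4.29, adjusted p = 0.0272) and against Plcg1-deficient (3.88, adjusted p = 0.0368), and 2510009E07Rik in double-deficient B cell progenitors against wild type (1.71, adjusted p = 0.0228) and against Plcg1-deficient (1.88, adjusted p = 0.0439). With the mouse as a replicate block, 1 was called between populations in Plcg2-deficient mice, and no other count between populations changed. Leaving out the 3 shallowest B cell progenitor libraries together, an alternative chosen after seeing the data, gave 1 in Plcg1-deficient and 1 in Plcg2-deficient against wild type, 2 in double-deficient against Plcg2-deficient and 1 between the single-deficient groups.

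Leaving out 1 library in turn gave 0 to 4 calls in double-deficient CLPs against wild type, 0 to 3 against Plcg1-deficient and 0 to 1 against Plcg2-deficient. Among B cell progenitors it gave 0 to 1 in Plcg1-deficient and 0 to 1 in Plcg2-deficient against wild type, 3 to 4 in double-deficient against wild type, 0 to 2 against Plcg1-deficient, 0 to 2 against Plcg2-deficient and 0 to 1 between the single-deficient groups. Depth limits Cdhr2, with 1 read in its lowest library, and Kif5a, with 7.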
